A study of Gorilla gorilla gorilla with 13 samples.

Results

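The genes described here code for the chondroitin sulfate proteoglycans of brain matrix and for proteins that bind them. They are 8 rows of a table of 18137 genes, chosen by symbol: the lecticans VCAN, BCAN, NCAN and ACAN, the link protein HAPLN1, the glycoprotein TNR, and the membrane proteoglycans CSPG4 and CSPG5. Their RNA was measured in cerebral organoids, self-organized cultures that form cortex-like tissue from stem cells, of 1 gorilla iPSC line (GC1), embedded in Matrigel, for which the labels name no genetic change and no difference in treatment between groups, taken at week 8 with a window of 3 days. Cells were sorted into apical radial glia (aRG, n = 4 libraries), basal radial glia (bRG, also 4 libraries), basal intermediate progenitors (bIP, 3 libraries) and neurons positive for BCL11B (N, 2 libraries), and each library was made from the RNA of 10000 cells. Beyond BCL11B, the antigens that defined the populations are not named in the labels. Because the libraries come from 1 line and no label ties them to separate cultures, each p-value below reflects variation among these libraries alone, and that variation may be technical. Fewer cells of a type in a sort and less RNA per cell cannot be told apart in such bulk libraries.

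Lecticans are large secreted core proteins that carry chondroitin sulfate chains. Their amino-terminal end binds the polysaccharide hyaluronan, link proteins such as HAPLN1 hold that bond, and tenascins such as TNR bind the other end. In developing cortex this matrix surrounds progenitors and migrating neurons, and in the adult brain it condenses into perineuronal nets. CSPG5 (neuroglycan C) and CSPG4 (NG2) instead span the cell membrane, the latter being a known marker of oligodendrocyte precursors and pericytes.

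Gene counts summed to 5464721 to 12524938 per library, and levels are given as CPM, counts relative to library size after correction of library composition. Counts are called reads below, though no source states whether each stands for a read or a fragment. Differences are log2 fold changes from edgeR's quasi-likelihood test over 16804 genes, called where the Benjamini-Hochberg adjusted p was under 0.05. The bRG library 3 stood apart from the other 12 on the second principal component (-67.7 against -6.58 to 18.3). The radial glia markers summed to 3642 to 6508 CPM in the aRG and bRG libraries and 752 to 1563 in bIP and N. Most of the latter was PTPRZ1, at 568 ± 178 CPM in bIP and 1161 ± 199 in N, against 1101 ± 243 in aRG. Mean levels in aRG and N were 672 and 16.7 CPM for PAX6, 1047 and 12.8 for SLC1A3, and 393 and 8.29 for SOX2. Of the 16 markers, 15 were called lower and 0 higher in bIP against aRG, and 14 and 0 in N against aRG (9.98% and 9.37% of all genes were called lower). Markers of intermediate progenitors were not highest in the libraries labelled bIP: they summed to 539 to 1030 CPM in bIP and 957 to 1271 in bRG. Of these 10 markers, 1 was called higher and 4 lower in bIP against bRG (8.25% and 8.44% of all genes). EOMES was at 367 ± 92.9 CPM in bRG and 85.3 ± 49.1 in bIP, and ELAVL4 at 278 ± 44.5 and 332 ± 59.8. The neuron markers summed to 661 to 1083 CPM in the radial glia, 4705 to 5071 CPM in bIP and 7170 to 7406 CPM in N. Markers of Cajal-Retzius neurons, early neurons that secrete reelin, summed to 1448 to 3861 CPM in bIP and 138 to 259 elsewhere.

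The 8 genes fell into those high in radial glia (VCAN, BCAN), those high in bIP and neurons (NCAN, TNR), and 4 with no called difference (ACAN, HAPLN1, CSPG4, CSPG5). Of the 8, 4 differed among the 4 populations, beside 22.5% of all genes tested. In bIP against aRG, VCAN and BCAN were lower (9.98% of all genes were called lower) and NCAN and TNR higher (8.47% called higher). Neurons against aRG gave the same 2 lower (9.37% of all genes) and the same 2 higher (10.4%), as did neurons against bRG (9.13% lower, 10.6% higher). In bIP against bRG, VCAN and BCAN were lower (8.44% of all genes) and TNR alone was higher (8.25%). These comparisons share libraries, so they are not independent of each other.

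**Figure D1:**
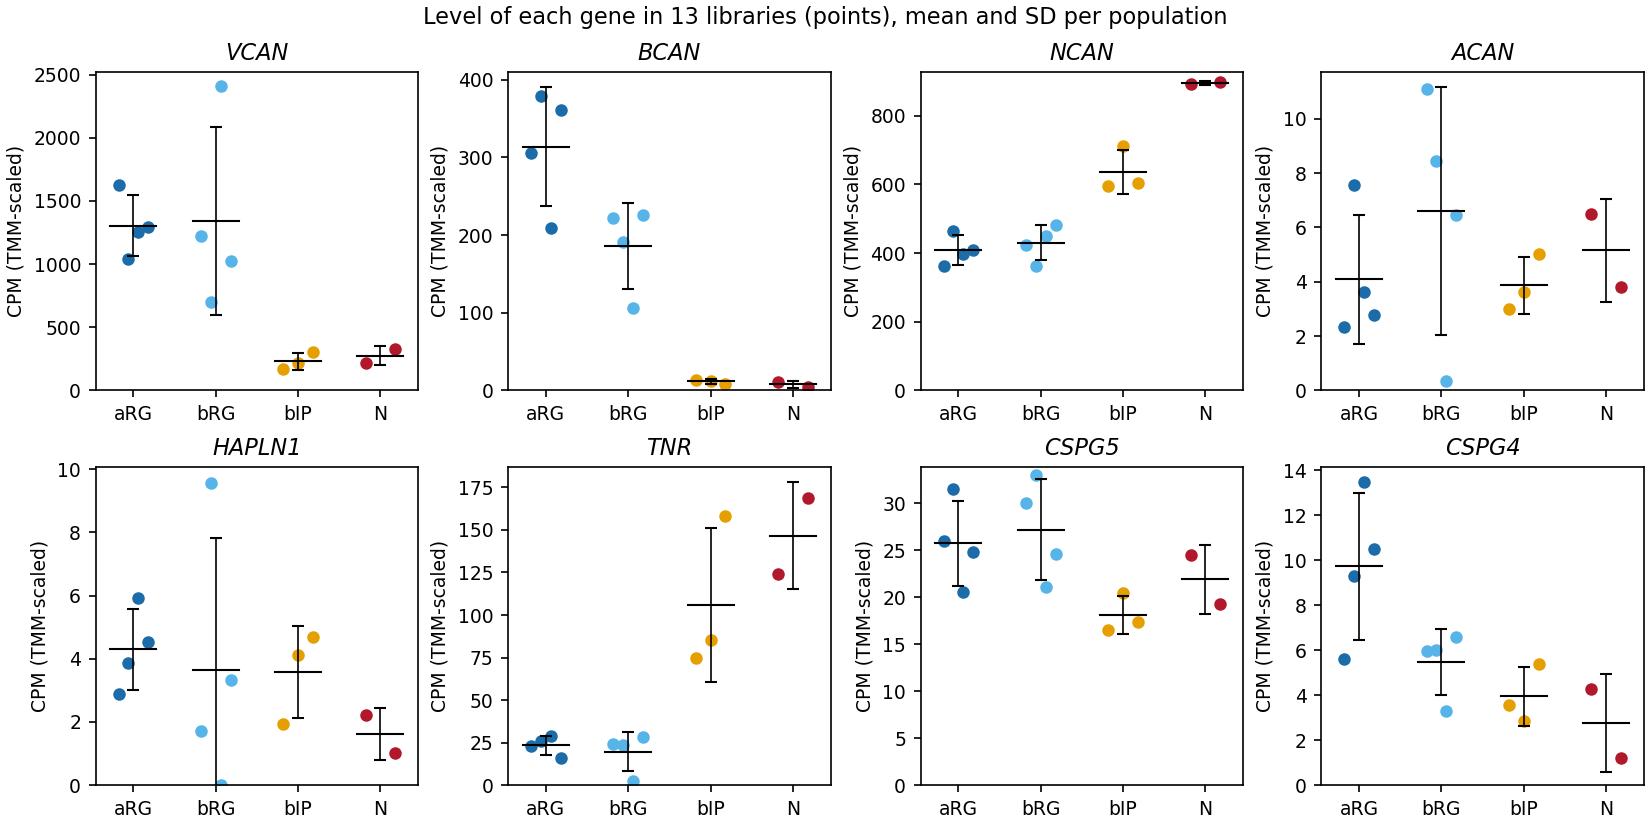
Level of the 8 genes in each of the 13 libraries (points, CPM, linear axis from 0), with the mean (bar) and SD (whisker) of each population. VCAN and BCAN are high in both kinds of radial glia, NCAN and TNR are high in bIP and N, and bRG library 3 holds the highest VCAN point (2406 CPM) and the lowest TNR point (2.71 CPM).

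VCAN (versican), a lectican of the early matrix, measured 1622, 1042, 1252 and 1296 CPM in aRG libraries 1 to 4. In bRG libraries 1 to 4 it measured 1226, 697, 2406 and 1027 CPM, so that bRG library 3 alone was above every aRG library. The bIP libraries held 170, 220 and 303 CPM, and the neurons 220 (library 1) and 329 CPM (the library whose number no label carries). No bIP or N library reached the lowest radial glia library, and bIP and N overlapped each other. VCAN was 5.63-fold lower in bIP than in aRG (log2 fold change -2.49, SE 0.375, adjusted p = 9.41e-05) and 4.75-fold lower in N than in aRG (-2.25, SE 0.437, adjusted p = 0.00102). Against bRG the log2 fold changes were -2.53 in bIP and -2.29 in N, and without bRG library 3 they were -2.09 and -1.84, both called. Between bRG and aRG it was 0.04 (SE 0.318), which turned to -0.41 without bRG library 3, neither called.

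BCAN (brevican), a lectican found in the nervous system, measured 306, 379, 209 and 361 CPM in aRG libraries 1 to 4, and 222, 191, 106 and 225 CPM in bRG libraries 1 to 4. In bIP it was at 13.7, 12.2 and 8.54 CPM, and in the neurons at 11.2 and 4.48 CPM. The lowest radial glia library thus stood several times above the highest bIP or N library, and aRG and bRG overlapped. BCAN was 27.4-fold lower in bIP than in aRG (log2 fold change -4.78, SE 0.397, adjusted p = 1.81e-07) and 40.4-fold lower in N than in aRG (-5.34, SE 0.493, adjusted p = 6.64e-07). The fall from aRG to N was -6.12 without neuron library 1 and -4.81 without the other neuron library. Against bRG the log2 fold changes were -4.02 in bIP (adjusted p = 1.56e-06) and -4.58 in N (adjusted p = 3.09e-06), the latter -5.37 without neuron library 1. Of the genes tested, 76 had a smaller p for any difference among the populations than BCAN, which ranked at 77.

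Among the 8 genes, BCAN had the smallest p between the 2 kinds of radial glia. The mean ± SD was 314 ± 76.6 CPM over 4 aRG libraries and 186 ± 55.5 CPM over 4 bRG libraries. This gave a log2 fold change of -0.75 (SE 0.297) with an unadjusted p of 0.0209 and an edgeR adjusted p of 0.39. No other of the 8 genes had an unadjusted p under 0.05 in bRG against aRG, where edgeR called 0 of the 8 genes, DESeq2 called 0, and 1.26% of all genes were called by edgeR. In these libraries the log2 fold change in bRG against aRG lay between -0.83 (CSPG4, SE 0.473) and 0.68 (ACAN, SE 0.672).

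NCAN (neurocan), a lectican made by glia and neurons, measured 363, 465, 397 and 410 CPM in aRG libraries 1 to 4, and 423, 362, 451 and 483 CPM in bRG. It was at 595, 711 and 604 CPM in bIP, and at 891 and 898 CPM in the neurons. The order was thus radial glia, bIP, then N with no overlap between these 3 levels, while aRG and bRG overlapped. NCAN was 2.19-fold higher in N than in aRG (log2 fold change 1.13, SE 0.223, adjusted p = 0.00115) and 2.08-fold higher than in bRG (1.06, SE 0.223, adjusted p = 0.00228). The step from aRG to bIP was 1.56-fold (0.64, SE 0.201, adjusted p = 0.0335), a call that ended in 8 of 20 alternative analyses (log2 fold change 0.55 to 0.71 over all 20). Those 8 were the gorGor6 table (adjusted p = 0.0791) and the removal of aRG library 1 (0.0765), aRG library 3 (0.0736), any of the bIP libraries (0.0667 to 0.159) or either neuron library (0.0514 and 0.0524). From bRG to bIP it was 0.57 (adjusted p = 0.0635), called without bRG library 3 (0.59, adjusted p = 0.037) and by DESeq2 (0.57, adjusted p = 0.0159). From bIP to N it was 0.49 (SE 0.240, adjusted p = 0.771), not called. Separation of 3 from 2 libraries can arise without a difference, and its share over all genes was not counted.

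TNR (tenascin-R), a glycoprotein that cross-links lecticans and binds the neuronal surface protein contactin 1, measured 22.9, 26.0, 28.7 and 15.8 CPM in aRG libraries 1 to 4. In bRG it was at 24.4, 23.6, 2.71 and 28.2 CPM, with bRG library 3 far below the rest on 23 reads. The bIP libraries 1 to 3 held 74.5, 85.0 and 158 CPM and the neurons 124 and 169 CPM. Every bIP and N library was above every radial glia library, and bIP and N overlapped. TNR was 4.53-fold higher in bIP than in aRG (log2 fold change 2.18, SE 0.490, adjusted p = 0.00366) and 6.28-fold higher in N than in aRG (2.65, SE 0.530, adjusted p = 0.00132). Against bRG the values were 2.42 in bIP and 2.89 in N, and 2.06 and 2.53 without bRG library 3, all called.

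The highest bIP library for TNR, library 3, was also the lowest for Cajal-Retzius markers, which summed to 3861, 2854 and 1448 CPM in bIP libraries 1 to 3. The neurons, with 225 and 259 CPM of those markers, both held more TNR than bIP libraries 1 and 2. The part of the bIP libraries' cell makeup in the NCAN and TNR levels was not tested.

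**Figure D2:**
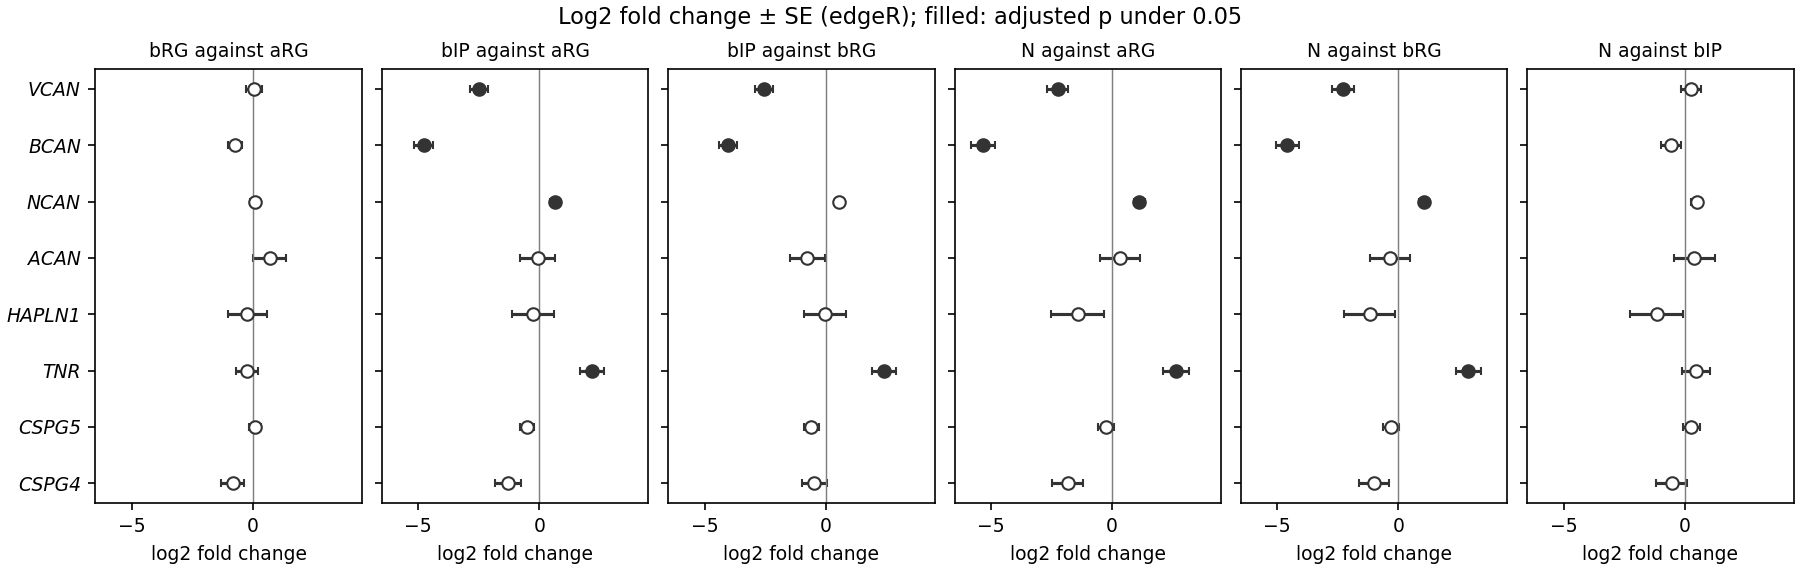
Log2 fold change (points) with its standard error (whiskers) of the 8 genes in the 6 pairwise comparisons, filled where the edgeR adjusted p was under 0.05. VCAN and BCAN lie left of 0 and NCAN and TNR right of 0 in the 4 comparisons that set bIP or N against radial glia, and no point is filled in bRG against aRG or N against bIP.

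No difference between neurons and bIP was called for these genes, NCAN included. Of the 8, edgeR called 0, DESeq2 called 0 and 0 had an unadjusted p under 0.05 (0.113% of all genes were called by edgeR), with log2 fold changes from -1.16 (HAPLN1, SE 1.109) to 0.49 (NCAN). The 2 neuron libraries limit this comparison.

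Ratios of reads within a library do not depend on how libraries are scaled, though their absolute size depends on gene length. NCAN per VCAN was 0.223 to 0.447 in aRG, 0.187 to 0.519 in bRG, 1.99 to 3.50 in bIP and, in the neurons, 2.73 to 4.05. The ratio of NCAN to BCAN was 1.13 to 1.90 in aRG, 1.89 to 4.24 in bRG, 43.3 to 70.7 in bIP and 79.9 to 201 in N. TNR per VCAN was 0.0122 to 0.0249 in aRG, 0.00113 to 0.0338 in bRG, 0.386 to 0.520 in bIP and 0.514 to 0.565 in N. Each of these 3 ratios sets a gene called higher over one called lower, except that NCAN was not called in bIP against bRG. The separation of radial glia from bIP and N thus restates those differences in level. The ratio of VCAN to BCAN, both lower in bIP and N, overlapped between radial glia and these populations through bRG library 3 alone. It was 2.75 to 5.99 in aRG, 12.4 to 35.5 in bIP and 19.7 to 73.5 in N. In bRG libraries 1 to 4 it was 5.53, 3.65, 22.6 and 4.56. NCAN per TNR, both higher in bIP and N, was 13.8 to 26.0 in aRG, 15.4 to 166 in bRG, 3.82 to 8.36 in bIP and 5.31 to 7.17 in N. Every radial glia library was thus above every bIP and N library. In the gorGor6 counts NCAN per VCAN was 0.194 to 0.514 over the radial glia and 2.05 to 4.13 over bIP and N.

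**Figure D3:**
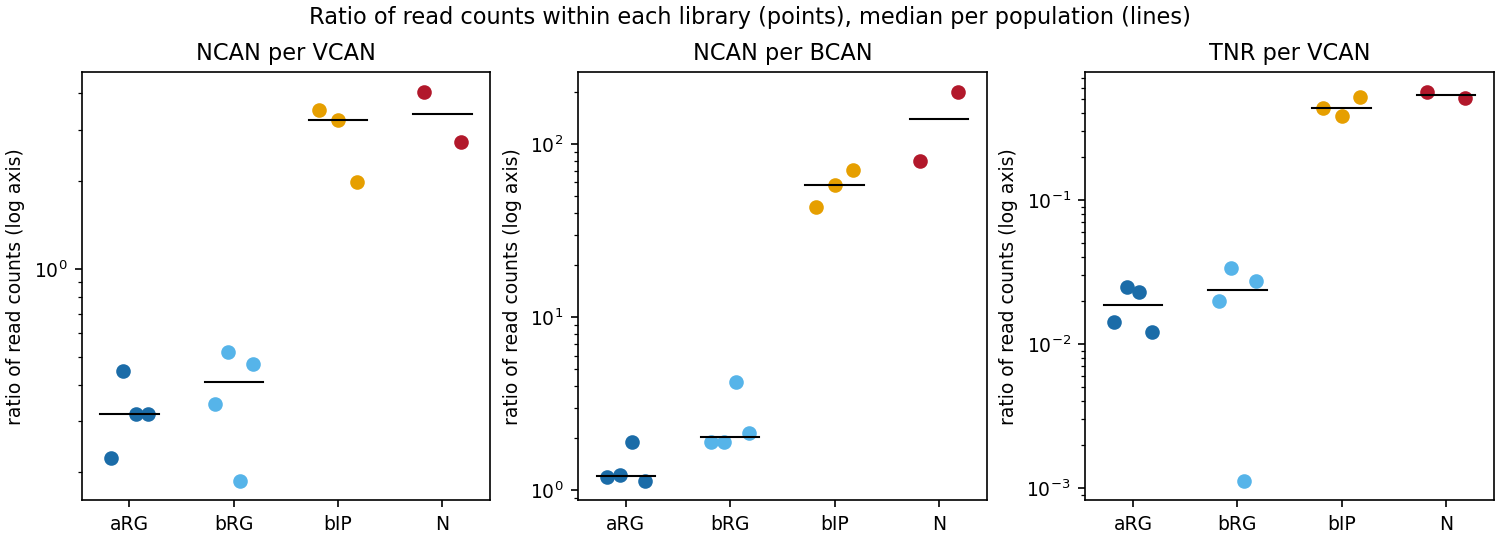
Ratio of read counts of 2 genes in each library (points, log axis) with the median of each population (line): NCAN per VCAN, NCAN per BCAN and TNR per VCAN. The radial glia libraries lie below all bIP and N libraries in the 3 panels, and bRG library 3 gives the lowest TNR per VCAN (0.00113).

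ACAN (aggrecan), the lectican of cartilage and of mature perineuronal nets, was low throughout. It measured 2.35, 7.56, 3.64 and 2.78 CPM in aRG libraries 1 to 4, 11.1, 8.45, 0.354 and 6.47 CPM in bRG, 2.99, 3.61 and 5.03 CPM in bIP and 6.50 and 3.82 CPM in N. All populations overlapped, and bRG library 3 held 3 reads. The edgeR adjusted p for any difference was 0.80, at a depth of 547 reads over the 13 libraries. The reads of ACAN in the hg38 table were 79.4% of those in the gorGor6 table, against 50.8% to 59.3% for the other 7 genes and a median of 57.0% over 10740 genes with at least 1000 hg38 reads.

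HAPLN1, the link protein that joins lecticans to hyaluronan, measured 2.89, 3.85, 5.94 and 4.54 CPM in aRG libraries 1 to 4. In bRG it was at 1.71, 9.57, 0 and 3.33 CPM, where the 0 of library 3 allows up to 0.354 CPM (3 reads). It was at 1.94, 4.14 and 4.67 CPM in bIP and 2.21 and 1.03 CPM in N, both neuron libraries being below the 4 aRG libraries. HAPLN1 was not called in N against aRG (log2 fold change -1.42, SE 1.08, adjusted p = 0.412) or in any other comparison, on 413 reads in all.

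CSPG5 (neuroglycan C), a membrane proteoglycan of neural cells, stayed within a narrow range of 16.6 to 33.0 CPM over the 13 libraries. It measured 26.0, 31.5, 20.6 and 24.8 CPM in aRG libraries 1 to 4 and 30.1, 33.0, 21.1 and 24.7 CPM in bRG. The bIP libraries held 16.6, 20.5 and 17.3 CPM, below every aRG and bRG library in the hg38 counts, and the neurons 24.5 and 19.3 CPM. In the gorGor6 counts bIP library 2 (16.55 CPM) was just above aRG library 3 (16.51 CPM). The share of all genes with such a separation was not counted. The log2 fold change of bIP was -0.50 against aRG (SE 0.289, adjusted p = 0.282) and -0.58 against bRG (SE 0.289, adjusted p = 0.196), not called.

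CSPG4 (NG2) measured 5.60, 9.28, 13.5 and 10.5 CPM in aRG libraries 1 to 4, 5.98, 6.01, 3.30 and 6.57 CPM in bRG, 3.58, 2.86 and 5.39 CPM in bIP and 4.29 and 1.21 CPM in N. In the hg38 counts the bIP and N libraries were below every aRG library and overlapped with bRG. In the gorGor6 counts bIP library 3 (5.93 CPM) was above aRG library 1 (4.76 CPM). The share of all genes separated in this way was not counted. Its log2 fold change was -1.83 in N against aRG (SE 0.635, adjusted p = 0.0504) and -1.30 in bIP against aRG (SE 0.527, adjusted p = 0.104). DESeq2 called both (adjusted p = 0.00634 and 0.0389), as did fits of only the 2 populations compared (0.0404 and 0.0404). The N against aRG difference was also called with DESeq2's size factors (0.0484) and without aRG library 1 (0.0385) or bRG library 3 (0.0209). Its log2 fold change was -2.99 without neuron library 1, -1.18 without the unnumbered neuron library and -0.90 with a term for library number. In the gorGor6 counts edgeR called neither difference (-2.06, adjusted p = 0.0735 in N, and -1.16, adjusted p = 0.307 in bIP).

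Markers of the cells that CSPG4 is known for were measured beside it. The 10 pericyte and mural cell markers summed to 339 to 379 CPM in aRG, 160 to 243 in bRG, 61.4 to 98.9 in bIP and 65.1 to 70.3 in N. In aRG that sum rested mainly on MCAM and PDGFRB, the 2 of 10 called lower in bIP against aRG, while TAGLN was called higher (5.27 CPM in aRG and 15.8 in bIP). MCAM, also a marker of other cells, held 249 ± 46.9 of the CPM in aRG, PDGFRB held 73.2 ± 26.7, RGS5 3.24 ± 1.29 and ACTA2 1.75 ± 1.12 (SD, n = 4). The 11 oligodendrocyte precursor markers in the table summed to 72.0 to 95.6 CPM in aRG and 146 to 153 in N, most of it MYT1, which neurons also express (134.5 ± 3.55 in N, n = 2). Of that list OLIG2 was at 0.704 ± 0.907 CPM in aRG and SOX10 at 2.41 ± 1.11, OLIG1 was listed at 0 in 3 libraries and NKX2-2 in 6. PDGFRA was at 17.4 ± 9.91 CPM in aRG, 21.2 ± 6.96 in bRG, 9.99 ± 4.61 in bIP and 3.79 ± 0.847 in N. Of the 9 tested, 2 were called higher and 0 lower in bIP against aRG, and 1 higher and 1 lower in N against aRG. Over all genes tested, 8.47% were called higher and 9.98% lower in bIP against aRG, and 10.4% and 9.37% in N against aRG. Mesenchyme and cartilage markers, whose cells make VCAN, ACAN and HAPLN1, summed to 784 to 1024 CPM in aRG, 587 to 1331 in bRG with the highest value in library 3, 145 to 205 in bIP and, in the neurons, 81.4 to 126. The highest single values were those of the collagen genes COL11A1 (931 CPM), COL9A1 (299) and COL2A1 (241). TWIST1, FOXC1 and PRRX1 reached at most 2.89, 2.71 and 5.42 CPM in any library. Of the 16 markers, 1 was called higher and 5 lower in bIP against aRG. In bIP against bRG, 0 were higher and 3 lower (median log2 fold change -0.12). The 12 choroid plexus and hem markers summed to 1736 to 8024 CPM in aRG and 276 to 1479 elsewhere. Most of that sum in aRG was TTR, at 4512 ± 2535 CPM in aRG, 628 ± 423 in bRG, 152 ± 89.3 in bIP and 180 ± 155 in N. Of the 12, 7 were called lower and 0 higher in bIP against aRG, and RSPO3 was at 29.1 CPM in aRG and 61.5 in bIP, not called. The part of such cells in the levels of VCAN and CSPG4 was not tested.

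In the RefSeq gene table of a gorilla assembly (NHGRI_mGorGor1-v2.1_pri, used for gene order only), each of the 4 lecticans has a link protein gene as its next protein-coding neighbour: HAPLN1 beside VCAN, HAPLN2 beside BCAN, HAPLN3 beside ACAN and HAPLN4 beside NCAN. HAPLN1 was not called where VCAN fell. HAPLN2 measured 0.718 ± 0.289 CPM in aRG, 2.09 ± 0.697 in bRG, 3.00 ± 1.61 in bIP and 3.49 ± 0.0802 in N, and it was higher in bIP and in N than in aRG (log2 fold changes 2.07 and 2.28), where BCAN was lower. Those calls of HAPLN2, on 243 reads in all, ended in 9 and 8 of 20 alternatives: with the gorGor6 table or a term for library number, and without any of aRG libraries 2 to 4, and for bIP also without aRG library 1 or bIP library 1 or 3, and for N without either neuron library. HAPLN3 measured 13.9 ± 7.04, 7.29 ± 2.74, 17.4 ± 6.97 and 8.62 ± 0.979 CPM in aRG, bRG, bIP and N and was not called in any comparison. HAPLN4 had 6 reads in all and was listed at 0 in 10 of the 13 libraries. These 3 genes were singled out for their position after their values had been seen.

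The genes around these proteoglycans were described from lists of hyaluronan and matrix partners, other chondroitin proteoglycans, chain enzymes, receptors and proteases. Of 21 tested hyaluronan and matrix partners, 2 were higher and 5 lower in bIP against aRG (median log2 fold change 0.33), and 2 higher and 6 lower in N against aRG (median -0.29). Over all genes tested the medians were -0.04 and -0.05. For this and each list below, the share of all genes called in bIP against aRG was 8.47% higher and 9.98% lower. In N against aRG it was 10.4% higher and 9.37% lower. TNC (tenascin-C), the tenascin of radial glia and the relative of TNR, measured 86.7 ± 16.9 CPM in aRG, 91.0 ± 23.5 in bRG, 12.7 ± 1.09 in bIP and 7.61 ± 4.83 in N, with log2 fold changes of -2.76 in bIP and -3.52 in N against aRG. The latter was -4.36 without neuron library 1 and -2.83 with libraries 1 and 2 separated from 3 and 4, both called. The 2 tenascins thus moved in opposite directions. CD44, a hyaluronan receptor named after its values were seen, fell by 1.81 on the log2 scale in bIP and by 2.54 in N, calls that ended in 2 and 1 of 20 alternatives (without bIP library 3 or with the gorGor6 table, and without neuron library 1). HMMR, another hyaluronan-binding protein that acts on the mitotic spindle, was lower in bIP (-3.98) and N (-4.55) than in aRG, and it was also lower in bRG than in aRG (-2.44). CEMIP, which takes part in hyaluronan breakdown, was higher, at 1.25 and 1.70. FBLN1, a fibulin that binds lecticans, fell by 2.38 and 3.03 (by 3.68 in N without the unnumbered neuron library), and FBN1 (fibrillin 1) fell by 1.21 in bIP, a call that ended without bIP library 1 or 3, and by 2.42 in N.

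Of 17 other chondroitin sulfate proteoglycans tested, 2 were higher and 2 lower in bIP against aRG, and 2 higher and 2 lower in N against aRG. SPOCK1 (testican-1) was higher in both, from 44.2 ± 11.5 CPM in aRG to 352 ± 217 in bIP (log2 fold change 3.00, and 2.37 without bIP library 3) and 620 ± 292 in N (3.81). SPOCK2 (testican-2) was higher in bIP (2.56), and in N its log2 fold change was 1.28, not called. COL9A1, a collagen IX chain also among the mesenchyme and cartilage markers, was lower (-3.53 and -4.16). TGFBR3 (betaglycan), a co-receptor for TGF-beta, was called lower in N (-2.65, not called without neuron library 1), and its value in bIP was -0.46, not called. SUSD5, a protein with a link domain, was at 7.67 ± 2.40 CPM in bRG and 0.959 ± 0.490 in N (-2.96, not called without either neuron library). PTPRZ1, a receptor phosphatase whose secreted form is phosphacan and whose ligand is the growth factor PTN, measured 1101 ± 243 CPM in aRG, 907 ± 298 in bRG, 568 ± 178 in bIP and 1161 ± 199 in N. Named after its values were seen, it was called lower in bIP than in aRG (-0.96), which ended in 5 of 20 alternatives, including the removal of aRG library 3 or 4 or bIP library 1 or 2.

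Of 20 tested enzymes that build the chains, 1 was higher and 1 lower in bIP against aRG (8.47% and 9.98% of all genes). In N against aRG, 3 were higher and 2 lower (10.4% and 9.37% of all genes). CSGALNACT1, which starts the chondroitin chain on its linker, rose from 19.3 ± 4.79 CPM in aRG and 23.7 ± 4.93 in bRG to 95.4 ± 35.5 in bIP and 177 ± 2.69 in N (log2 fold changes 2.30 and 3.20 against aRG, SE 0.312 in N). XYLT1, which adds the first sugar of the linker to the core protein, fell from 198 ± 24.3 CPM in aRG to 42.2 ± 9.66 in bIP and 34.2 ± 3.02 in N (-2.23 and -2.53). The polymerizing enzyme CHSY3 was higher in N (1.74, a call that ended without aRG library 3 or 4 or either neuron library). PAPSS1 and PAPSS2 make the sulfate donor. PAPSS1 was higher in N (1.44, not called without the unnumbered neuron library, at 0.96) and PAPSS2 lower (-1.79, not called without either neuron library).

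Of 13 tested genes of sulfation, epimerization and desulfation, 1 was higher and 4 lower in bIP against aRG, and 2 higher and 5 lower in N against aRG. CHST15, which adds a second sulfate to 4-sulfated units, rose from 16.3 ± 4.73 CPM in aRG to 65.7 ± 17.4 in bIP and 135 ± 14.0 in N (log2 fold changes 2.02 and 3.06). CHST11, a chondroitin 4-O-sulfotransferase, was higher in N (1.07), a call that ended without either neuron library. CHST3, the 6-O-sulfotransferase, fell from 32.8 ± 10.6 CPM in aRG to 7.68 ± 3.03 in bIP and 2.36 ± 0.303 in N (-2.09 and -3.79). CHST14, which sulfates dermatan sulfate, fell as well (-3.16 and -3.80), as did the desulfating enzyme ARSB (-1.77 and -1.91, the latter not called without neuron library 1).

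Of 23 tested receptors and ligands, 7 were higher and 5 lower in bIP against aRG and 8 higher and 6 lower in N against aRG. CNTN1 (contactin 1), the partner of TNR on axons, rose with it, from 20.2 ± 4.01 CPM in aRG and 13.8 ± 6.21 in bRG to 142 ± 88.4 in bIP and 241 ± 103 in N (log2 fold changes 2.82 and 3.58 against aRG, and 2.19 in bIP without library 3). The growth factors PTN and MDK, which bind chondroitin sulfate, fell from 2496 ± 688 and 881 ± 75.2 CPM in aRG. In bIP they were at 135 ± 11.9 and 97.5 ± 15.2 CPM, and neurons held 56.5 ± 31.3 and 119 ± 44.6 CPM. NRP1, a semaphorin receptor, fell by 1.05 and 2.13. OTX2, a homeodomain protein that binds chondroitin sulfate in nets and also marks choroid plexus, fell from 47.8 ± 23.5 CPM in aRG to 5.05 ± 1.28 in bIP and 0.216 ± 0.0414 in N, alongside the choroid plexus marker sum given above. LINGO1, a co-receptor of the Nogo receptor named after its values were seen, was higher at 2.83 and 3.17.

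Among 19 tested proteases and inhibitors, 3 were higher and 2 lower in bIP against aRG and 2 higher and 5 lower in N against aRG. ADAMTS5, an aggrecanase that cuts lecticans, rose from 10.1 ± 2.54 CPM in aRG to 25.3 ± 1.20 in bIP and 59.5 ± 7.39 in N (log2 fold changes 1.32 and 2.56). ADAMTS9, which cuts versican and aggrecan, was lower (-2.19 and -1.87, the latter not called without either neuron library). ADAMTS1 was lower in N (-3.08), as was MMP2 (-2.87), and neither was called in bIP against aRG. In bIP against bRG, ADAMTS1 was called lower (-1.47), which ended in 8 of 20 alternatives. TIMP4, a protease inhibitor at under 5 CPM on average, was called higher in bIP (2.69) and N (2.46) than in aRG. Those calls ended in 5 and 11 of 20 alternatives, among them the removal of any one of aRG libraries 2 to 4. Against bRG, TIMP4 was called higher in bIP (3.39) in all 20 alternatives, and in N (3.16) in all but 4. Of 12 heparan sulfate proteoglycans, the other main class, 1 was higher and 5 lower in bIP against aRG, and 1 higher and 7 lower in N against aRG, with a median log2 fold change in N of -2.34. SDC3 was the one higher in both (1.22 and 1.30, not called without bIP library 2 in the first case and without either neuron library in the second), while GPC6 (-2.80 and -2.95), SDC1 (-2.27 and -2.63), HSPG2 (-2.13 and -2.92) and SDC2 (-1.94 and -4.71, the latter -5.43 without the unnumbered neuron library) were lower.

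**Figure D4:**
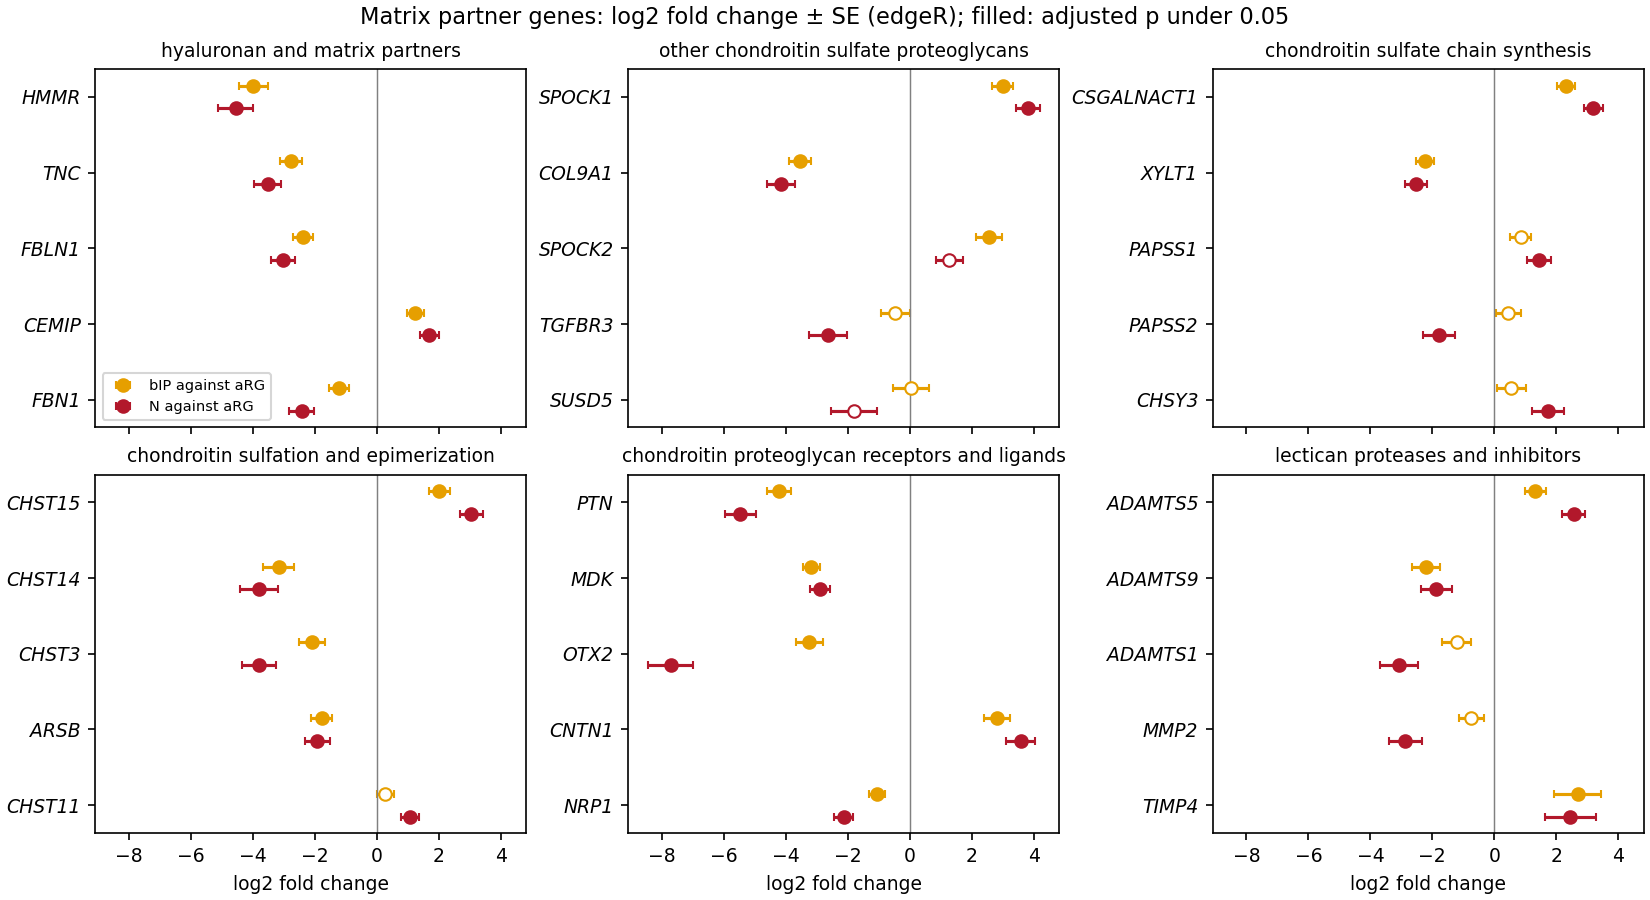
Log2 fold change (points) with its standard error (whiskers) in bIP against aRG and in N against aRG for the 5 genes of each list drawn with the smallest p for any difference, filled where the edgeR adjusted p was under 0.05. The heparan sulfate proteoglycans and the cell markers are not drawn. CSGALNACT1, CHST15, CNTN1, ADAMTS5 and SPOCK1 lie right of 0, and XYLT1, CHST3, TNC, PTN and MDK left of 0. Both comparisons share the aRG libraries.

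The genes whose levels followed each of the 8 most closely were found by Pearson's r of log2 CPM over the 13 libraries among 8831 genes. The libraries of a population share their sorted cell type, so for BCAN, VCAN, NCAN and TNR r mostly describes the order of the populations. For BCAN they were NOTCH3 (0.987), LAMB2 (0.987) and CLSPN (0.984), for VCAN FAM135A (0.991), PRKD3 (0.991) and PARP8 (0.984). For NCAN they were CDK5R1 (0.958), SEPTIN3 (0.957) and CELF2 (0.955), and for TNR RALYL (0.978), ADAMTS3 (0.974) and PTPRU (0.972). The closest genes of the other 4 reached 0.887 for ACAN (MKNK1), 0.899 for HAPLN1 (SLC35C2), 0.893 for CSPG4 (KIF18B) and 0.886 for CSPG5 (ABAT). These 4 had no called difference among the populations, and what their r describes was not tested.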

How the data were processed

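Both tables the authors deposited hold unnormalized whole-number counts by gene symbol, one on hg38 and one on gorGor6, a build named only in the table's title. Per the submitters' processing notes the aligner was STAR and the build hg38. For the counter, its annotation and its strand setting no source was at hand, so overlapping genes are uncertain. Smart-seq2 libraries (12 to 17 PCR cycles) carry no molecular identifiers, and limits from reads cover counting error only. Counts of the hg38 table were fitted with edgeR 4.0.16 (R 4.3.3, TMM, filterByExpr with a minimum count of 10, which all 8 genes passed) with a mean per population over all 13 libraries. Standard errors were the absolute log2 fold change over the root of F. The column N2 matched no neuron label by number and entered as an unnumbered neuron library. Alternatives were DESeq2 1.42.0, its size factors, no filter, the gorGor6 table (60583 named genes), the replicate number as a block, libraries 1 and 2 separated from 3 and 4, the 2 populations alone, and each library removed. Fits were tested on simulated data. All 8 genes were named, up to 5 genes per list with the smallest p, and the 3 closest genes by r among those with a mean log2 CPM (prior count 2) of at least 4. The genes and lists were chosen with earlier results of these data known. No library was a duplicate (chi-square over its degrees of freedom was at least 10.6 for each pair in a population). The RefSeq table was of another build, so no positions are given.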

Additional observations from a re-analysis of the deposited data

Results flagged for a closer look

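In groups of 4 libraries, a value was picked out when its gap to the nearest library exceeded 0.829 of the group's range, which chance gives for about 1 in 20 groups. Of 26 groups of levels and ratios examined, 4 were picked out, and none was the level of a single gene. In bRG the library 3 stood highest for NCAN per BCAN (4.24), VCAN per BCAN (22.6) and NCAN per TNR (166). In aRG the library 3 stood highest for NCAN per BCAN (1.90). The 3 bRG ratios come from the same library and share genes.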

How the results depend on the processing

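Of 15 called differences of the 8 genes, 13 stayed called with the same sign in all 20 alternatives, and the exceptions were NCAN in bIP against aRG (called in 12) and TNR in N against aRG (called in 19). With the replicate number as a block, TNR in N against aRG was 2.46 (adjusted p = 0.0579), BCAN in bRG against aRG was -0.78 (adjusted p = 0.0385), and so 1 of the 8 genes was called in bRG against aRG. The block changed no other call of the 8 genes. The numbers were not taken to pair libraries: same-numbered libraries correlated at -0.0127 to 0.387 in their deviations, with 7 of 13 pairs over 0.1, against 12 of 38 pairs of different number. The block left out the unnumbered neuron library.

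Among 33 uncalled differences, 14 changed sign somewhere and 11 values became called. With the block, signs turned for VCAN in bRG against aRG (-0.092) and N against bIP (-0.0018), for ACAN in bIP against aRG (0.043) and N against bRG (0.016), for HAPLN1 in bIP against bRG (0.33), N against bRG (0.38) and N against bIP (0.046), and for CSPG4 in N against bIP (0.33). With libraries 1 and 2 separated from 3 and 4 they turned for VCAN in bRG against aRG (-0.031), HAPLN1 in bIP against bRG (0.014) and CSPG4 in N against bIP (0.27), and with the gorGor6 table for ACAN in bIP against aRG (0.15). Leaving out each library in turn spanned 0 in bRG against aRG for VCAN (-0.41 to 0.25), CSPG5 (-0.028 to 0.19), HAPLN1 (-1.34 to 0.18) and TNR (-0.47 to 0.12). It did so for ACAN in bIP against aRG (-0.30 to 0.40), N against aRG (-0.088 to 0.81), N against bRG (-0.77 to 0.012) and N against bIP (-0.020 to 0.74). It did so for HAPLN1 in bIP against aRG (-0.50 to 0.027) and bIP against bRG (-0.44 to 1.08), and in N against bIP for VCAN (-0.067 to 0.51) and CSPG4 (-1.69 to 0.12). The cause was not tested. ACAN and HAPLN1 rest on 547 and 413 reads.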
